A study of Homo sapiens with 6 samples.

Results

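The genes described here encode Golgi glycosyltransferases and carbohydrate sulfotransferases, the enzymes that build and decorate the sugar chains of proteins and lipids. They were chosen by symbol alone, as the GALNT, B3GNT, B4GALT, B3GALT, ST3GAL, ST6GAL, ST6GALNAC, ST8SIA, FUT, GCNT and CHST genes with a number, the MGAT genes and A4GALT, which gave 100 of the 27980 symbols in the count tables. RNA was sequenced from RKO cells, an established human line of poorly differentiated colon carcinoma. The cells of 3 libraries expressed a stably integrated hairpin that targets TRIP6 (shTRIP6, genotype label TRIP6 knockdown), and those of the other 3 a scrambled hairpin (shControl, genotype label WT), both delivered by lentivirus. Both groups had been under 5 µg/ml puromycin from 36 h after infection for 2 to 3 weeks. The labels call the replicates biological but name no hairpin number, clone or separate infection. P-values therefore measure the spread between these libraries, which may be technical, and no difference is assigned to TRIP6 itself.

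A sugar chain is assembled stepwise in the Golgi, each enzyme adding a sugar or a sulfate to the product of an earlier step, and enzymes that share an acceptor compete for it. Mucin-type O-glycans start with N-acetylgalactosamine (GalNAc) placed on serine or threonine, N-glycans are branched by N-acetylglucosamine (GlcNAc) transferases, and glycolipids grow from lactosylceramide. Galactose, fucose and sialic acid then finish the chains, and in colon carcinoma such ends are known as tumour-associated antigens.

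The libraries held 29605764 to 32089298 counts each, and a single count was worth 0.0314 to 0.0336 CPM (read counts scaled to a common library size with TMM factors). TRIP6, whose product is a LIM-domain adaptor, stood at 19.8, 19.4 and 19.5 CPM in shTRIP6 and 73.9, 86.4 and 80.5 CPM in shControl (log2 fold change -2.04 ± 0.071, edgeR adjusted p = 1.25e-14). The groups did not overlap. Of the colon and epithelial markers, KRT8, KRT18 and KRT19 were above 1 CPM. KRT19 rose from 13.8 to 50.6 CPM (edgeR adjusted p = 7.84e-12), while KRT8 and KRT18 did not pass the test (adjusted p = 0.186 and 0.7), and KRT8 did without shControl replicate 1 (0.00388). In contrast, EPCAM, KRT20, CDX1, VIL1 and GPA33 had no count in any library and CDH1 stood at 0.0212 against 0.272 CPM. The summed level of 10 fibroblast markers was 160 to 180.2 CPM in shTRIP6 and 116 to 129 CPM in shControl, most of it THY1 (153 against 89.3 CPM). PDGFRB also rose (13.9 against 6.88 CPM), whereas FAP (0.328 against 15 CPM), COL3A1 (0.275 against 2.35 CPM) and COL1A1 (2.38 against 5.15 CPM) fell, and DCN and POSTN were at 0 in shTRIP6. The leukocyte markers summed to 236 to 245 CPM in shTRIP6 and 187 to 236 CPM in shControl, most of it CD68. CD68 was higher with overlapping libraries (239 against 208 CPM, edgeR adjusted p = 0.0118). CD14 rose from 0.520 to 2.22 CPM (edgeR adjusted p = 7.40e-05), while PTPRC stood at 0 against 0.0974 CPM and MS4A1 at 0. The endothelial markers summed to 0.345 to 0.450 CPM in shTRIP6 and 2.28 to 2.57 CPM in shControl. Most of the shControl sum was PECAM1 (0 against 1.64 CPM), and no other marker of that list reached 1 CPM. VWF stood at 0.212 against 0.187 CPM. The part of these markers in the results was not tested, and in such bulk RNA fewer cells of a type and less RNA per cell cannot be told apart.

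Below, means are given ± SD over 3 libraries, with shTRIP6 first, and log2 fold changes of shTRIP6 over shControl ± SE of the fit. Gene positions are from GENCODE on GRCh38, where all 100 genes are protein-coding.

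Of the 100 genes, 68 had enough counts to be tested, 19 had some counts but too few, and 13 had no count in any library. At a Benjamini-Hochberg adjusted p under 0.05 in edgeR's quasi-likelihood test, 18 of the 68 were higher in shTRIP6 and 27 were lower, which is 66.2% against 60.1% of all 15473 tested genes. By direction, 26.5% were higher against 29% of all tested genes, and 39.7% were lower against 31.2%. Among the 51 tested members whose exons overlap no other gene of the table, 17 were higher and 18 lower, and among the 17 with an overlap 1 was higher and 9 were lower. Such a split of all tested genes is not given here, so these counts have no background beside them. At least 2-fold, 6 were higher and 10 lower, or 23.5% against 14.9% of all tested genes (4.38% higher and 10.5% lower). The median log2 fold change was -0.12 over the 68 genes and -0.0040 over all tested genes. Libraries of the 2 groups did not overlap for 50 of the 68, or 73.5% against 65.3% of all tested genes. Genes that passed the count filter through a high level in a single group had to differ. These shares, and those by family and list below, are therefore descriptions only, and so are the p-values of such genes.

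**Figure D1:**
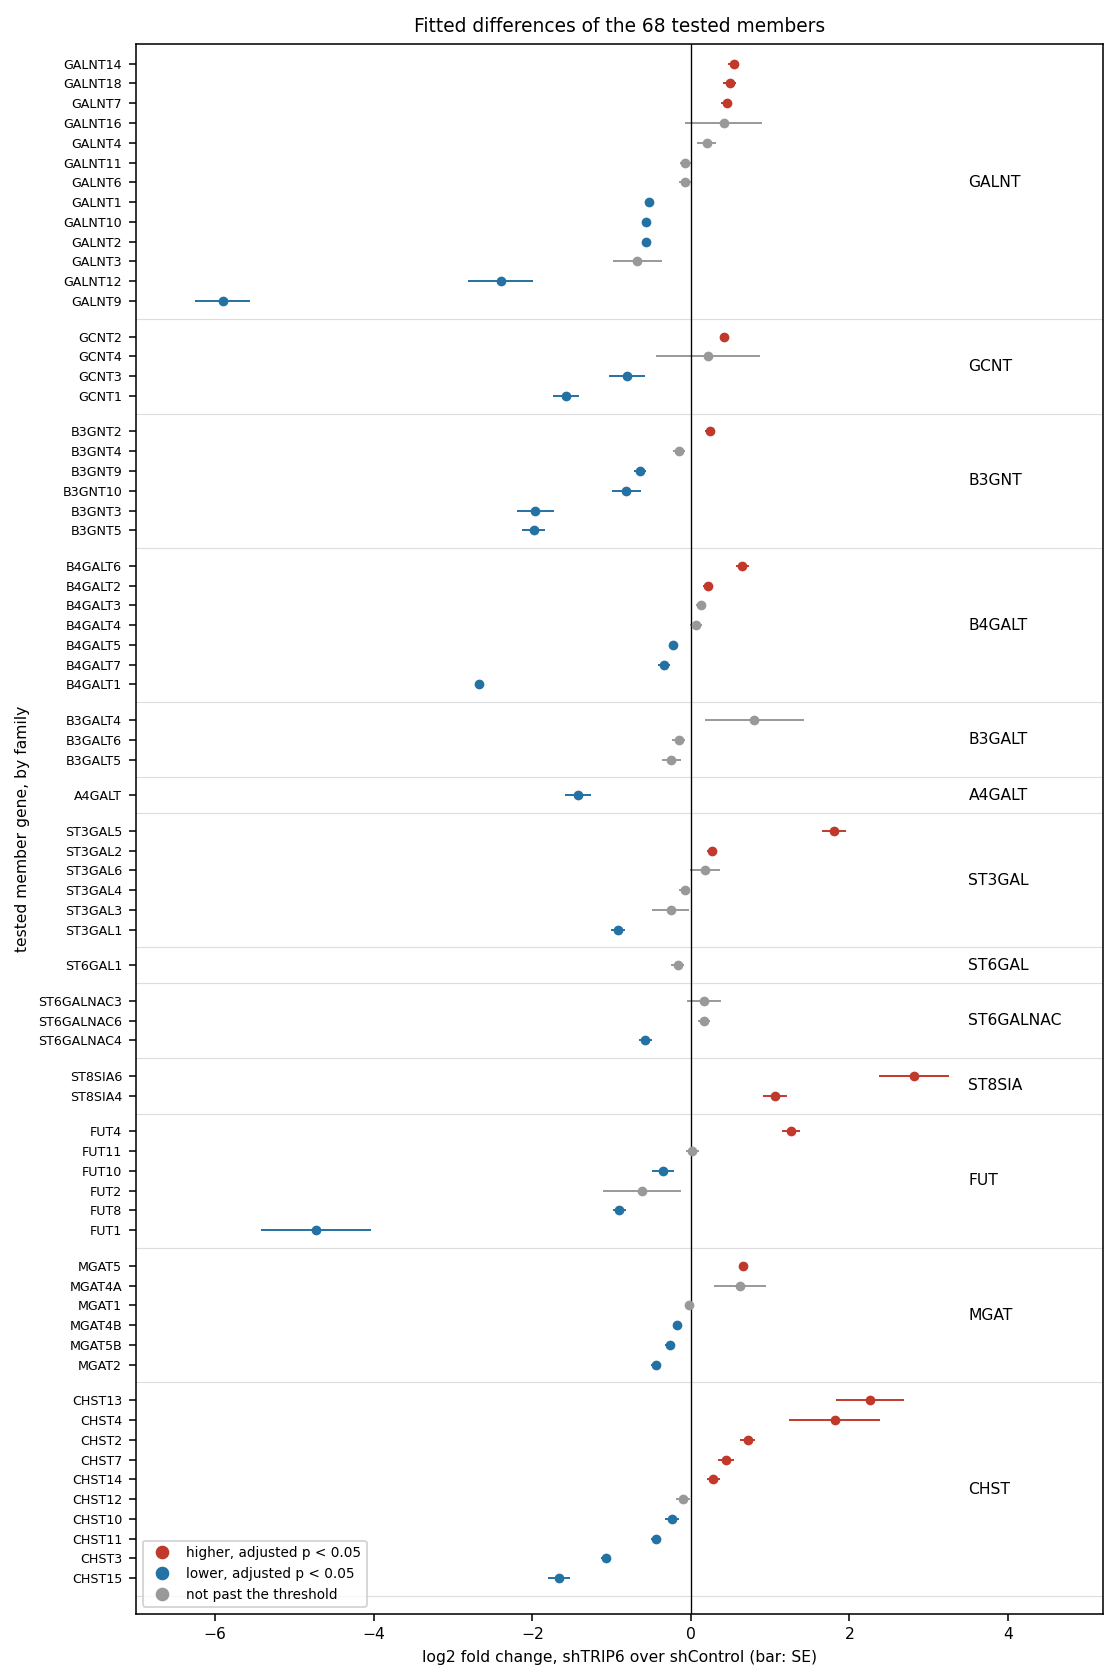
Log2 fold change of shTRIP6 over shControl for the 68 tested glycosyltransferase and sulfotransferase genes, grouped by family and sorted within each, with bars for the SE of the fit. Red points were higher and blue points lower at an adjusted p under 0.05, and 8 of the 13 families hold both colours, with GALNT9 (-5.91) and FUT1 (-4.73) farthest to the left and ST8SIA6 (2.81) farthest to the right.

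The 14 genes that differed at least 2-fold with a group mean of 1 CPM or more and no overlap of the groups divided into 9 falls and 5 rises. The falls were GALNT9, B4GALT1, GALNT12, B3GNT5, B3GNT3, CHST15, GCNT1, A4GALT and CHST3, and the rises were ST8SIA6, CHST13, ST3GAL5, FUT4 and ST8SIA4.

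**Figure D2:**
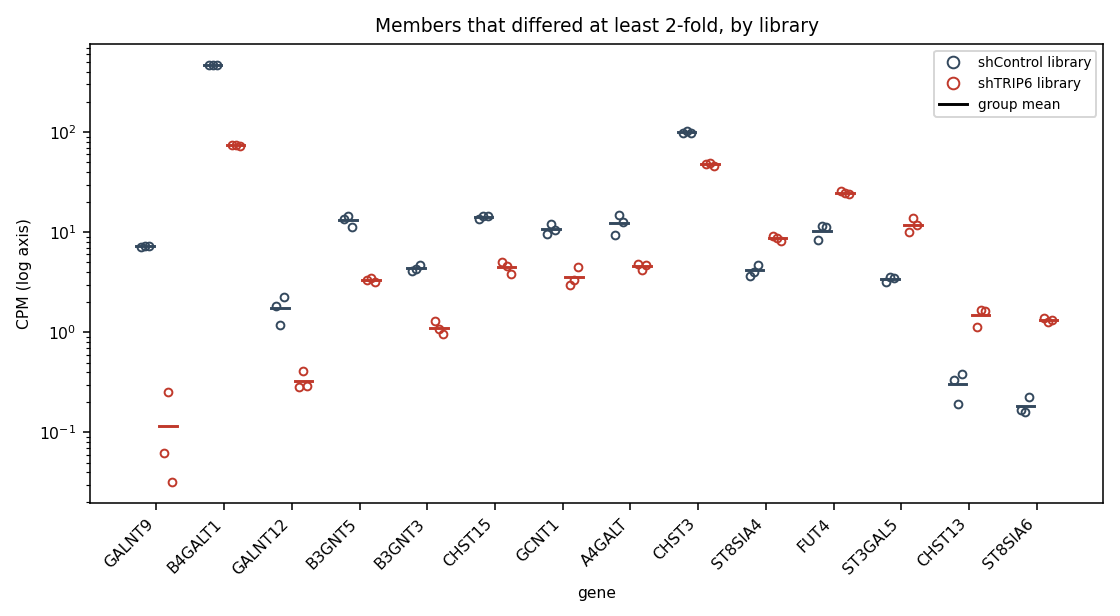
CPM (log axis) in each of the 6 libraries for the 14 genes, with a horizontal line at each group mean, ordered from the largest fall to the largest rise. The 3 points of a group lie apart from those of the other group for every gene shown, and those of GALNT9 in shTRIP6 rest on 1 to 8 counts a library.

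Start sites of these genes were looked at in RefSeq promoter windows (GRCh38.p14, 250 bases before to 50 after a start), which matched 74 of the 100 genes and 13 of the 14. The core of the motif read by TEAD factors, the DNA partners of the co-activators YAP and TAZ to which TRIP6 has been linked, was searched as GGAATG on both strands, where it reads CATTCC on the other. It stood in 3 of the 25 windows of the 13 genes (12%), in 13.1% of the windows of all matched members and in 14.0% of all 35116 windows. Counted by gene, which can have several windows, it stood in 23.1% of the 13 genes, 20.3% of the matched members and 16.7% of all genes with a window. The 3 matches belonged to A4GALT and CHST15, which fell, and to CHST13, which rose, so genes with the motif went both ways. They are printed 5′ to 3′ on the gene's strand with the motif in capitals, beside the more upstream window of B4GALT1, which holds no match. The windows are chr9:33167287-33167586 (minus strand), chr22:42721252-42721551 (minus strand, the more upstream of 2 starts), chr10:124093549-124093848 (minus strand) and chr3:126523905-126524204 (plus strand). The matches start 111, 93 and 71 bases before the start site in A4GALT, CHST15 and CHST13. The B4GALT1 window holds 39 CG dinucleotides, those of CHST15 and CHST13 hold 18 each, and the printed window of A4GALT holds 6. The window at the other A4GALT start holds 43 and no match. The median was 14 over all windows, 22 over those of matched members and 27 over those of the 13 genes.
B4GALT1: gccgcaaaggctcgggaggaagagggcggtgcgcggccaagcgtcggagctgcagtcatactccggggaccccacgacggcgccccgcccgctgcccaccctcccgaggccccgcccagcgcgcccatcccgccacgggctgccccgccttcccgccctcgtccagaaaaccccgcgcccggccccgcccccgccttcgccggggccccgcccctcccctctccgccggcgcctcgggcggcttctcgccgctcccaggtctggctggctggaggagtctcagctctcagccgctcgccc
A4GALT: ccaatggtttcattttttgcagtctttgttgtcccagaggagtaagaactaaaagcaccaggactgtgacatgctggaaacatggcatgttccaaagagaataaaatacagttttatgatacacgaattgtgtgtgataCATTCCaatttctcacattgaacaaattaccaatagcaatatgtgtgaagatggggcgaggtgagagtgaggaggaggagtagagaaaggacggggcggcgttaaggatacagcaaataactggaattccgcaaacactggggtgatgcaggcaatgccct
CHST15: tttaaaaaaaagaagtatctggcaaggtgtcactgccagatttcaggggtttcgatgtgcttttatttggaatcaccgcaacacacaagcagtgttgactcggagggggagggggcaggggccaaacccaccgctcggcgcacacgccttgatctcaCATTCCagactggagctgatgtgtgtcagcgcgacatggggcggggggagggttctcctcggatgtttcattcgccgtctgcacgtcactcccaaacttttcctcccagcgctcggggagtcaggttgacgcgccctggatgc
CHST13: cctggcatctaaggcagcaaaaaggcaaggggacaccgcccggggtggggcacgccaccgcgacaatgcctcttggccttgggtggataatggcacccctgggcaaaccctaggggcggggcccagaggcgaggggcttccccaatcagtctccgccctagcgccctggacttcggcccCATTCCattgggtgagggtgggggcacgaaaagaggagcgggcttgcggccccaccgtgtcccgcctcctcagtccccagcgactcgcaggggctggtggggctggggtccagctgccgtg

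The galactosyltransferases of the B4GALT family add beta-linked galactose to GlcNAc, glucose or xylose, and B4GALT1 is the member best known for galactosylating N-glycans. B4GALT1 (chromosome 9 from 33104082 to 33167356 on the minus strand) stood at 73.8, 73.7 and 73.4 CPM in shTRIP6 and 472, 466 and 467 CPM in shControl. The groups lay far apart and the libraries of each group within a narrow range, which gave a 6.36-fold fall (log2 fold change -2.67 ± 0.045, edgeR adjusted p = 1.76e-19). The antisense gene B4GALT1-AS1, which shares 72 exon bases with it, stood at 2.06 against 8.46 CPM, and its counts came to 1.95% of those of B4GALT1. The other called members differed by less than 2-fold. B4GALT6, a lactosylceramide synthase, rose (40.9 ± 3.55 CPM against 26 ± 1.49 CPM in shControl, log2 fold change 0.65 ± 0.08, edgeR adjusted p = 1.17e-06), and B4GALT2, which also acts on N-glycans, rose slightly (84 ± 2.35 CPM against 72.6 ± 3.64 CPM in shControl, log2 fold change 0.21 ± 0.056, edgeR adjusted p = 0.00352). B4GALT5, the main lactosylceramide synthase, fell slightly, from 212 ± 7.72 to 182 ± 5.39 CPM (log2 fold change -0.22 ± 0.047, edgeR adjusted p = 4.35e-04). B4GALT7, which adds galactose to the xylose of the glycosaminoglycan linker, fell as well (25.2 ± 0.932 CPM against 31.9 ± 2.24 CPM in shControl, log2 fold change -0.34 ± 0.079, edgeR adjusted p = 0.0011). B4GALT3 and B4GALT4, at 55.2 against 50.6 CPM and 26.6 against 25.4 CPM, did not pass the test (edgeR adjusted p = 0.0857 and 0.481), and upper-quartile scaling brought B4GALT3 past it (adjusted p = 0.0193). Its alternatives spanned 0.0193 to 0.213.

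Per kilobase of exon, B4GALT1 was the leading member of its family in shControl and B4GALT5 was the leading member in shTRIP6. B4GALT1 held 14.1% ± 0.21 in shTRIP6 and 50.9% ± 0.645 in shControl of the family's CPM per kilobase (SD, n = 3), and B4GALT5 held 36.1% ± 0.595 in shTRIP6 and 23.9% ± 0.587 in shControl. B4GALT2 held 20.9% ± 0.683 in shTRIP6 and 10.3% ± 0.366 in shControl. The shares use the full exon length of each gene model, so a change of transcript would shift them, and they carry no test. The B3GALT family adds beta-linked galactose in another linkage. None of its 3 tested members passed the edgeR test (0% called against 60.1% of all tested genes). None passed in DESeq2 or limma-voom either, and 0 had an unadjusted p under 0.05. B3GALT6, which adds the next galactose of the glycosaminoglycan linker and led this family in both groups, stood at 25.1, 26.3 and 22.4 CPM in shTRIP6 and 26.9, 27.7 and 27.3 CPM in shControl (log2 fold change -0.15 ± 0.082, edgeR adjusted p = 0.12), and although the groups did not overlap the difference was small. B3GALT5, which makes type 1 chains in gut epithelium, stood at 11 against 13 CPM (adjusted p = 0.0808) and B3GALT4, the GM1 ganglioside synthase, at 0.403 against 0.231 CPM (adjusted p = 0.286).

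**Figure D3:**
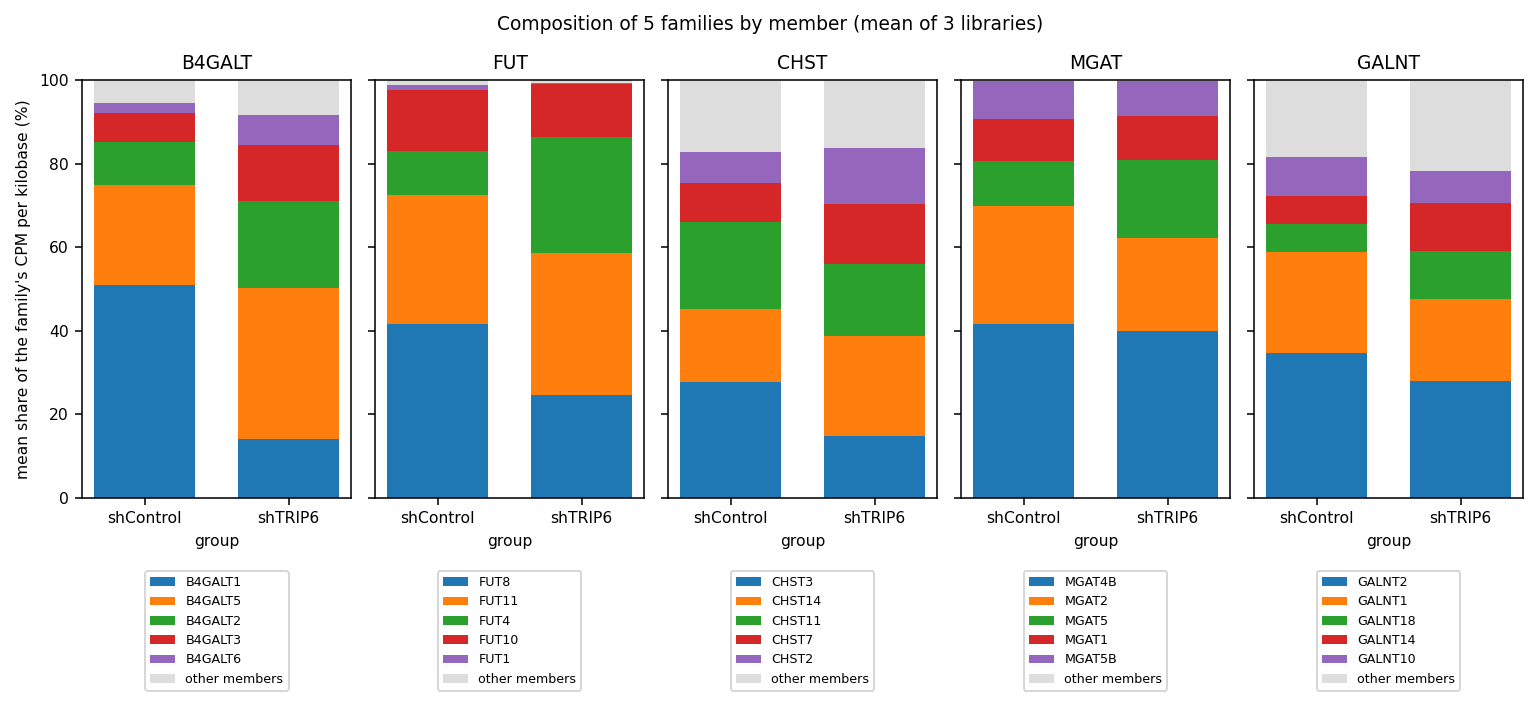
Mean share of each family's CPM per kilobase of exon (%, mean of 3 libraries) held by its 5 leading members in shControl and shTRIP6, with the other members in grey. B4GALT1 takes 50.9% of its family in shControl and 14.1% in shTRIP6, FUT4 takes a larger part of the FUT family in shTRIP6 and CHST3 a smaller part of the CHST family, while MGAT4B leads its family in both groups.

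Lactosylceramide is the branch point of glycolipid synthesis, and the enzymes that take it in different directions changed in different directions. ST3GAL5, which adds sialic acid to it and so opens the ganglioside series (chromosome 2 from 85837120 to 85905199 on the minus strand), stood at 10.2, 13.9 and 11.8 CPM in shTRIP6 and 3.19, 3.59 and 3.46 CPM in shControl. Every shTRIP6 library lay above every shControl library, a 3.5-fold rise (log2 fold change 1.81 ± 0.15, edgeR adjusted p = 8.14e-09). A4GALT, which adds galactose and opens the globo series (chromosome 22 from 42692112 to 42721298 on the minus strand), stood at 4.86, 4.22 and 4.69 CPM in shTRIP6 and 9.34, 15 and 12.5 CPM in shControl. All shTRIP6 values lay below the shControl values, which themselves spread, and the fall was 2.68-fold (log2 fold change -1.42 ± 0.16, edgeR adjusted p = 5.20e-07). B3GNT5, which adds GlcNAc and opens the lacto and neolacto series (chromosome 3 from 183253244 to 183298504 on the plus strand), stood at 3.33, 3.52 and 3.15 CPM in shTRIP6 and 13.6, 14.5 and 11.3 CPM in shControl. Its groups did not overlap and the fall was 3.95-fold (log2 fold change -1.98 ± 0.15, edgeR adjusted p = 9.92e-10). Its exons share 1315 bases with those of MCF2L2 on the other strand, whose counts came to 4.34% of its own.

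Of the summed CPM per kilobase of these 3 enzymes, ST3GAL5 held 29.4% ± 4.2 in shTRIP6 and 3.89% ± 0.416 in shControl (SD, n = 3). A4GALT held 54.2% ± 4.57 in shTRIP6 and 66% ± 5.68 in shControl, and B3GNT5 held 16.4% ± 0.811 in shTRIP6 and 30.1% ± 5.41 in shControl. A4GALT thus stayed the most abundant of the 3 per kilobase in every library, while the order of ST3GAL5 and B3GNT5 turned. This order rests on the exon lengths used, 16318 bases for ST3GAL5, 8140 for B3GNT5 and 3407 for A4GALT. By mean CPM, ST3GAL5 was the highest in shTRIP6 (12 against 4.59 for A4GALT and 3.33 for B3GNT5). In shControl, B3GNT5 stood at 13.2, A4GALT at 12.3 and ST3GAL5 at 3.41 CPM. From the list of related genes, UGCG, which makes the glucosylceramide that precedes lactosylceramide, rose from 146 ± 7.13 to 203 ± 8.75 CPM (log2 fold change 0.48 ± 0.051, edgeR adjusted p = 1.70e-07), and B4GALNT1, which extends gangliosides with GalNAc, rose from 38.7 ± 1.17 to 72.1 ± 3.39 CPM (log2 fold change 0.90 ± 0.062, edgeR adjusted p = 3.95e-10). B3GALNT1, which extends the product of A4GALT to globoside, rose from 1.73 ± 0.329 to 12.5 ± 1.85 CPM (log2 fold change 2.85 ± 0.18, edgeR adjusted p = 9.61e-11), against the direction of A4GALT. ST8SIA1, which makes the disialylated ganglioside, had 2, 5 and 3 counts in shTRIP6 and 3, 4 and 10 in shControl and was too low to be tested.

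**Figure D4:**
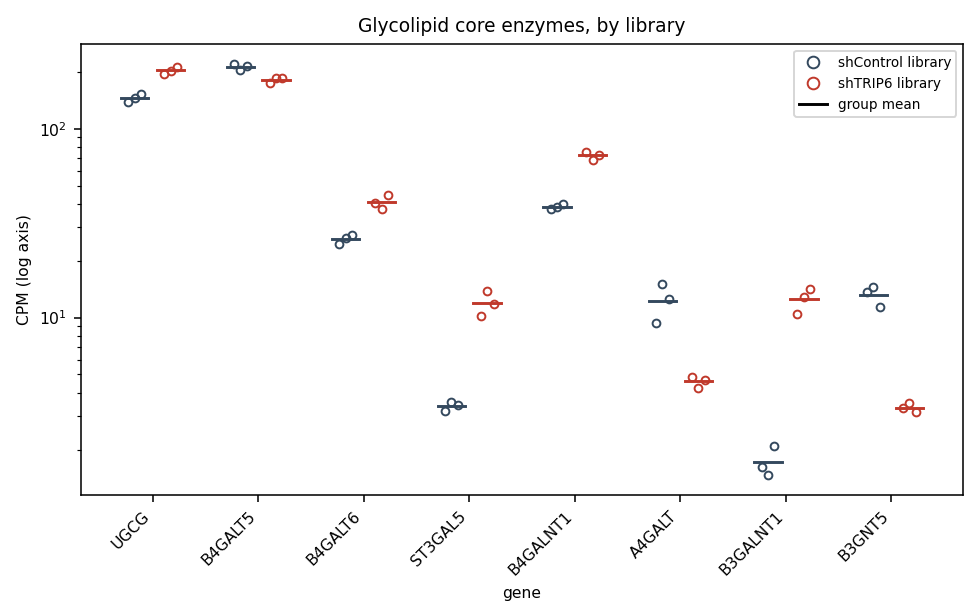
CPM (log axis) in each library for 8 genes of glycolipid core synthesis, with lines at the group means. UGCG, B4GALT6, ST3GAL5, B4GALNT1 and B3GALNT1 lie higher in shTRIP6 and B4GALT5, A4GALT and B3GNT5 lie lower, and for each gene the 3 libraries of a group lie apart from the other 3.

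The GALNT enzymes start mucin-type O-glycans by placing GalNAc on the protein. Of 18 genes 13 were tested, 3 rose, 5 fell and 5 did not pass the test, so that 61.5% were called against 60.1% of all tested genes. GALNT2, a widely expressed initiating enzyme and the leading member per kilobase in both groups, stood at 182, 193 and 184 CPM in shTRIP6 and 262, 282 and 285 CPM in shControl. The groups did not overlap, and the fall was moderate (log2 fold change -0.57 ± 0.048, edgeR adjusted p = 6.41e-09). GALNT1, the next most abundant initiating enzyme, fell to 87.6 ± 3.97 CPM against 126 ± 2.41 CPM in shControl (log2 fold change -0.53 ± 0.052, edgeR adjusted p = 6.14e-08), and GALNT10, which prefers acceptors that already carry GalNAc, fell to 69.4 ± 0.814 CPM against 102 ± 5.82 CPM in shControl (log2 fold change -0.56 ± 0.056, edgeR adjusted p = 6.85e-08). MFAP3, which shares 121 exon bases with GALNT10 on the same strand, had 84.7% of its counts, at 64 against 81.4 CPM. The 3 rises were of similar size to the falls of GALNT2, GALNT1 and GALNT10. GALNT14, known for O-glycosylating death receptors, stood at 44.9 ± 1.46 CPM against 30.9 ± 0.927 CPM in shControl (log2 fold change 0.54 ± 0.068, edgeR adjusted p = 1.46e-06). GALNT7, which like GALNT10 prefers glycosylated acceptors, rose to 43.8 ± 0.911 CPM against 32.1 ± 1.78 CPM in shControl (log2 fold change 0.45 ± 0.069, edgeR adjusted p = 1.78e-05), and GALNT18 rose to 35.9 ± 2.64 CPM against 25.6 ± 1.07 CPM in shControl (log2 fold change 0.49 ± 0.078, edgeR adjusted p = 2.72e-05).

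GALNT9 and GALNT12 were low in shControl and fell much further. GALNT9, a member best known from brain (chromosome 12 from 132196372 to 132329349 on the minus strand), stood at 0.0627, 0.256 and 0.0321 CPM in shTRIP6 and 7.09, 7.35 and 7.27 CPM in shControl. That is 2, 8 and 1 counts in shTRIP6 and 211, 229 and 225 in shControl, so nearly all of its signal was in shControl (log2 fold change -5.91 ± 0.35, edgeR adjusted p = 4.36e-11). Without shTRIP6 replicate 2, which held 8 of the 11 shTRIP6 counts, the log2 fold change was -7.13. Of the nearest tested genes, LINC02361 stood at 0.711 against 1.19 CPM (log2 fold change -0.75 ± 0.36, edgeR adjusted p = 0.0825), and passed with a filter of 1 CPM in 3 libraries (adjusted p = 0.0483, alternatives 0.0483 to 0.211). FBRSL1, on the other side, stood at 24.1 against 33.1 CPM (log2 fold change -0.46 ± 0.076, edgeR adjusted p = 4.20e-05), or 72.8% of its shControl level. GALNT12, which is expressed in normal colon (chromosome 9 from 98807699 to 98850081 on the plus strand), stood at 0.282, 0.416 and 0.289 CPM in shTRIP6 and 1.81, 1.19 and 2.26 CPM in shControl. The groups did not overlap, although the shControl values rest on 37 to 70 counts (log2 fold change -2.40 ± 0.41, edgeR adjusted p = 5.20e-05). GALNT11, which acts on NOTCH1, and GALNT6, a mucin-type initiator of breast and gut tumours, stood at 45 against 47.3 CPM and 29.4 against 30.9 CPM (edgeR adjusted p = 0.377 and 0.447). GALNT3, which glycosylates FGF23, stood at 1.2 against 1.91 CPM (adjusted p = 0.0725) and GALNT16 at 0.751 against 0.562 CPM (adjusted p = 0.48). GALNT4 stood at 13.2 against 11.5 CPM (adjusted p = 0.178, and 0.0413 without shControl replicate 1, alternatives 0.0413 to 0.558). It shares 5033 of its 5399 exon bases with the read-through gene POC1B-GALNT4, whose counts were 98.6% of its own, so their counts cannot be separated.

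O-glycans are then branched and extended. Of the GCNT genes, which add branching GlcNAc, 1 of 4 tested rose and 2 fell (75% called against 60.1% of all tested genes). GCNT1, the core 2 branching enzyme (chromosome 9 from 76419850 to 76651203 on the plus strand), stood at 2.98, 3.36 and 4.47 CPM in shTRIP6 and 9.54, 12 and 10.6 CPM in shControl. The shTRIP6 values all lay below the shControl values (log2 fold change -1.57 ± 0.17, edgeR adjusted p = 1.62e-07). GCNT3, the mucin-type core 2 and core 4 enzyme, fell to 2.46 ± 0.341 CPM against 4.31 ± 1.09 CPM in shControl (log2 fold change -0.81 ± 0.23, edgeR adjusted p = 0.00463). GCNT2, which makes the branches of the I blood group antigen and held most of this family per kilobase, stood at 69.4, 71.4 and 74.2 CPM in shTRIP6 and 55.6, 52.8 and 52.3 CPM in shControl. Its groups did not overlap and it rose (log2 fold change 0.42 ± 0.058, edgeR adjusted p = 5.01e-06), and its share of the family was 89.4% ± 2.24 in shTRIP6 and 74.7% ± 2.69 in shControl. GCNT4 stood at 0.318 against 0.275 CPM (adjusted p = 0.795).

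Of the B3GNT genes, which add the GlcNAc on which chains are lengthened, 1 of 6 tested rose and 4 fell. That is 83.3% called against 60.1% of all tested genes. B3GNT3, which extends core 1 O-glycans (chromosome 19 from 17794828 to 17813082 on the plus strand), stood at 1.29, 1.09 and 0.964 CPM in shTRIP6 and 4.06, 4.27 and 4.72 CPM in shControl. Its shTRIP6 values all lay below its shControl values (log2 fold change -1.96 ± 0.23, edgeR adjusted p = 7.95e-07). B3GNT2, the main enzyme of polylactosamine chains and the leading member per kilobase in shTRIP6, stood at 45.5, 49.3 and 48.4 CPM in shTRIP6 and 40.6, 39.5 and 40.8 CPM in shControl. It was higher in every shTRIP6 library by a small amount (log2 fold change 0.24 ± 0.064, edgeR adjusted p = 0.00303). B3GNT9, the leading member per kilobase in shControl, stood at 30.6, 29.9 and 26.1 CPM in shTRIP6 and 43, 44.3 and 47.3 CPM in shControl. Its groups lay apart (log2 fold change -0.64 ± 0.076, edgeR adjusted p = 8.20e-07), and its share of the family was 26.1% ± 1.57 in shTRIP6 and 33.9% ± 1.27 in shControl. C16orf70, which shares 435 of its 2917 exon bases on the other strand, had 88.4% of its counts, at 29.9 against 35.2 CPM, and the sources do not state the strand setting. B3GNT10 fell to 3.29 ± 0.63 CPM against 5.81 ± 0.328 CPM in shControl (log2 fold change -0.82 ± 0.18, edgeR adjusted p = 7.71e-04), where FBXW2, which shares 406 exon bases with it on the other strand, had 2276% of its counts, at 65.1 against 143 CPM. B3GNT4, also a polylactosamine enzyme, stood at 42.6 against 47.2 CPM (adjusted p = 0.0869, and 0.0388 without shControl replicate 2, alternatives 0.0388 to 0.353). DIABLO, which shares 916 of the 4690 exon bases of B3GNT4 on the other strand, had 117% of its counts, at 51 against 54.1 CPM. B3GNT5 is described with the glycolipids.

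The MGAT enzymes set the number of branches of an N-glycan, and 3 of 6 tested fell and 1 rose, each by less than 2-fold. The called share was 66.7% against 60.1% of all tested genes. MGAT1, which opens the way to complex N-glycans, stood at 119 ± 5.61 CPM against 120.1 ± 9.57 CPM in shControl and did not pass the test (edgeR adjusted p = 0.806). MGAT2, which adds the branch after it, fell to 57.8 ± 3.19 CPM against 78.8 ± 4.48 CPM in shControl (log2 fold change -0.45 ± 0.062, edgeR adjusted p = 5.35e-06). MGAT5, which adds a branch that favours polylactosamine and is known from invasive carcinoma, rose 1.58-fold to 155 ± 2.11 CPM against 98.2 ± 0.287 CPM in shControl (log2 fold change 0.66 ± 0.047, edgeR adjusted p = 6.88e-10). MGAT4B, a branching enzyme that led the family per kilobase in both groups, stood at 211, 214 and 212 CPM in shTRIP6 and 219, 248 and 251 CPM in shControl. The groups lay apart by a narrow gap (log2 fold change -0.18 ± 0.052, edgeR adjusted p = 0.00651), and SQSTM1, which shares 105 exon bases with it on the other strand, had 752% of its counts. MGAT5B, better known from brain, fell to 51.3 ± 1.77 CPM against 61.5 ± 1.88 CPM in shControl (log2 fold change -0.26 ± 0.06, edgeR adjusted p = 8.71e-04), and MGAT4A stood at 1.54 against 0.998 CPM (adjusted p = 0.115). MGAT3, the enzyme of the bisecting GlcNAc, had 0, 2 and 2 counts in shTRIP6 and 2, 0 and 0 in shControl and was not tested.

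Of the fucosyltransferases, 3 of 6 tested fell and 1 rose (66.7% called against 60.1% of all tested genes). FUT8, the enzyme of core fucose on N-glycans and the leading member per kilobase in shControl (chromosome 14 from 65410592 to 65744121 on the plus strand), stood at 24, 22.6 and 26.4 CPM in shTRIP6 and 49.5, 41.5 and 45.8 CPM in shControl. No shTRIP6 value reached a shControl value (log2 fold change -0.91 ± 0.083, edgeR adjusted p = 2.14e-08). FUT4, which makes Lewis x type ends (chromosome 11 from 94543840 to 94549898 on the plus strand), stood at 25.7, 24.8 and 24 CPM in shTRIP6 and 8.33, 11.5 and 11.3 CPM in shControl. Each shTRIP6 library held more than any shControl library, a 2.39-fold rise (log2 fold change 1.26 ± 0.11, edgeR adjusted p = 1.45e-08). Per kilobase, FUT8 held 24.6% ± 1.34 in shTRIP6 and 41.8% ± 2.73 in shControl of the family, and FUT4 held 27.8% ± 1.43 in shTRIP6 and 10.5% ± 2.03 in shControl. FUT11, which led the family per kilobase in shTRIP6, stood at 24.2, 25.3 and 24.9 CPM in shTRIP6 and 22.8, 24.4 and 26.4 CPM in shControl. Its groups overlapped and it did not pass the test (log2 fold change 0.015 ± 0.082, edgeR adjusted p = 0.889).

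FUT1, which makes the H blood group antigen, had 0, 2 and 1 counts in shTRIP6 and 32, 29 and 26 in shControl. With 3 counts in all in shTRIP6, the shControl level was 29.8 times the shTRIP6 level, with an exact 95% interval of 9.85 to 147 that covers counting error only (edgeR adjusted p = 9.49e-06). FUT1 passed the count filter only through its shControl libraries, so the filter fixed its direction and this p-value adds no support. With a filter of 1 CPM in 3 libraries FUT1 was not tested. The fitted log2 fold change was -4.73, and -5.57 without shTRIP6 replicate 2. Its neighbour RASIP1, 7290 bases away, was also lower, at 0.934 against 6.47 CPM (log2 fold change -2.79 ± 0.23, edgeR adjusted p = 3.96e-09), while BCAT2 on the other side stood at 25.8 against 31.7 CPM (log2 fold change -0.30 ± 0.095, edgeR adjusted p = 0.0111). The BCAT2 call was lost without shTRIP6 replicate 3 (adjusted p = 0.066) or shControl replicate 3 (0.0924, alternatives 5.23e-05 to 0.0924). FUT2, the secretor enzyme, stood at 0.361 against 0.555 CPM (adjusted p = 0.293). FUT10 was lower by a small amount with overlapping libraries (10.5 ± 0.743 CPM against 13.4 ± 2.8 CPM in shControl, log2 fold change -0.35 ± 0.14, edgeR adjusted p = 0.0344), and that call depended on 4 libraries. Its adjusted p was 0.0676 and 0.174 with shControl replicates 1 and 3 left out in turn, and 0.0936 and 0.122 with shTRIP6 replicates 1 and 2 left out in turn. It was 0.0639 with upper-quartile scaling, 0.051 in DESeq2 and 0.0531 in limma-voom. The p-values of its alternatives spanned 0.00149 to 0.174. TTI2, which shares 37 exon bases with it on the same strand, had 347% of its counts. FUT3, FUT5, FUT7 and FUT9, which include the Lewis enzyme, had no count in any library, and FUT6 had 3 counts in all.

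Sialyltransferases close the chains, and 2 of 6 tested ST3GAL genes rose and 1 fell (50% called against 60.1% of all tested genes). ST3GAL4, a sialyltransferase of lactosamine ends that led its family per kilobase in both groups, stood at 44.4, 44.3 and 40.6 CPM in shTRIP6 and 43.9, 48.8 and 43.8 CPM in shControl. The groups overlapped (log2 fold change -0.078 ± 0.069, edgeR adjusted p = 0.346). ST3GAL1, which caps core 1 O-glycans, fell to 13.8 ± 0.487 CPM against 26.1 ± 1.85 CPM in shControl (log2 fold change -0.92 ± 0.09, edgeR adjusted p = 5.35e-08). ST3GAL2, which also acts on core 1 chains and on gangliosides, rose to 71.6 ± 4.24 CPM against 59.4 ± 2.14 CPM in shControl (log2 fold change 0.27 ± 0.061, edgeR adjusted p = 8.14e-04). Thus the sialyltransferases of core 1 O-glycans went both ways, and the share of ST3GAL1 in the family per kilobase was 7.63% ± 0.236 in shTRIP6 and 14.4% ± 0.696 in shControl. ST3GAL6 stood at 5.86 against 5.17 CPM (adjusted p = 0.422) and ST3GAL3 at 3.48 against 4.15 CPM (adjusted p = 0.352, and 0.039 without shControl replicate 1, alternatives 0.039 to 0.991). Exons of ST3GAL6 share 235 bases with those of the far more abundant DCBLD2 on the other strand.

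ST6GAL1, which sialylates N-glycans and is often high in colon carcinoma, stood at 23.2, 22.5 and 22.8 CPM in shTRIP6 and 24, 25.4 and 27.4 CPM in shControl. The groups did not overlap but the difference was small (log2 fold change -0.17 ± 0.081, edgeR adjusted p = 0.0867), and it passed the test without shControl replicate 1 (adjusted p = 0.0304, alternatives 0.0304 to 0.285). Of the ST6GALNAC genes, ST6GALNAC4, which adds a further sialic acid to sialylated core 1 and led its family per kilobase in shControl, stood at 21.3, 23.1 and 22.4 CPM in shTRIP6 and 32, 31.2 and 36.4 CPM in shControl. Its groups lay apart and it fell (log2 fold change -0.57 ± 0.082, edgeR adjusted p = 7.29e-06). ST6GALNAC6, which acts on gangliosides and led this family in shTRIP6 by its mean share, stood at 46.8, 48 and 42.1 CPM in shTRIP6 and 37.3, 39.6 and 45.1 CPM in shControl. Its mean share in shTRIP6 was 48.8% ± 2.04 against 48.2% ± 1.86 for ST6GALNAC4, which led in shTRIP6 replicate 3. The groups overlapped (log2 fold change 0.17 ± 0.078, edgeR adjusted p = 0.0731), and it passed the test without shTRIP6 replicate 3 (adjusted p = 0.0295) or shControl replicate 3 (0.013), and with upper-quartile scaling (0.0225). The p-values of its alternatives spanned 0.013 to 0.227. ST6GALNAC3 stood at 3.41 against 3.03 CPM (adjusted p = 0.515). ST6GALNAC1, the sialyl-Tn synthase, had no count in any library.

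The ST8SIA enzymes join sialic acid to sialic acid. Only 2 of the 6 genes were tested, and both rose, where 29% of all tested genes were higher. ST8SIA6 passed the count filter only through its shTRIP6 libraries. The filter thus fixed its direction, and the comparison with 29% is a description only. ST8SIA4, a polysialic acid synthase (chromosome 5 from 100806935 to 100903266 on the minus strand), stood at 9.13, 8.82 and 8.13 CPM in shTRIP6 and 3.66, 4.04 and 4.75 CPM in shControl. Its groups did not overlap and it rose 2.09-fold (log2 fold change 1.06 ± 0.15, edgeR adjusted p = 7.92e-06). ST8SIA6, which makes disialyl ends on O-glycans (chromosome 10 from 17318383 to 17454330 on the minus strand), stood at 1.38, 1.28 and 1.32 CPM in shTRIP6 and 0.168, 0.16 and 0.226 CPM in shControl. The shControl values rest on 5 to 7 counts a library and the shTRIP6 values on 40 to 44, and the rise was 7.03-fold in the fit (log2 fold change 2.81 ± 0.45, edgeR adjusted p = 2.51e-05). ST8SIA2, the other polysialic acid synthase, had no count.

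The CHST genes encode sulfotransferases of chondroitin and dermatan sulfate, keratan sulfate and related chains, and 9 of 10 tested members were called (90% against 60.1% of all tested genes), 5 higher and 4 lower. Of the 9, CHST4 and CHST10 lost their call under some alternatives, given below with each. CHST4 and CHST13 would not have passed the count filter on their shControl libraries alone, so the 90% is a description only. CHST3, the main chondroitin 6-sulfotransferase and the leading member per kilobase in shControl (chromosome 10 from 71964365 to 72013564 on the plus strand), stood at 48.1, 48.8 and 46.1 CPM in shTRIP6 and 99.1, 103 and 98.7 CPM in shControl. Its groups lay apart, and it fell 2.11-fold (log2 fold change -1.08 ± 0.055, edgeR adjusted p = 5.17e-12). CHST15, which adds a further sulfate to sulfated chondroitin and makes its E units (chromosome 10 from 124007666 to 124093607 on the minus strand), stood at 5.05, 4.6 and 3.86 CPM in shTRIP6 and 13.6, 14.7 and 14.5 CPM in shControl. All shTRIP6 values were below the shControl values (log2 fold change -1.66 ± 0.13, edgeR adjusted p = 3.68e-09). CHST11, a chondroitin 4-sulfotransferase, fell to 51.3 ± 2.01 CPM against 69.9 ± 4.07 CPM in shControl (log2 fold change -0.45 ± 0.062, edgeR adjusted p = 5.59e-06).

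CHST13, also a chondroitin 4-sulfotransferase (chromosome 3 from 126524283 to 126543291 on the plus strand), stood at 1.13, 1.66 and 1.64 CPM in shTRIP6 and 0.336, 0.193 and 0.388 CPM in shControl. Its groups lay apart, with 6 to 12 counts a library in shControl (log2 fold change 2.26 ± 0.42, edgeR adjusted p = 1.49e-04). CHST14, the dermatan 4-sulfotransferase and the leading member per kilobase in shTRIP6, stood at 41.9, 37.9 and 38.9 CPM in shTRIP6 and 33.1, 29.1 and 35.4 CPM in shControl. Its groups lay apart and it rose (log2 fold change 0.28 ± 0.079, edgeR adjusted p = 0.00488), and its share of the family was 24% ± 1.17 in shTRIP6 and 17.5% ± 1.47 in shControl beside 14.8% ± 0.462 in shTRIP6 and 27.8% ± 1.13 in shControl for CHST3. CHST7, which shares the 6-sulfation of chondroitin with CHST3, rose to 15.3 ± 1.09 CPM against 11.3 ± 0.636 CPM in shControl (log2 fold change 0.44 ± 0.11, edgeR adjusted p = 0.00142), so the enzymes of that step went both ways. CHST2, which sulfates GlcNAc in selectin ligands and keratan sulfate, rose to 28.3 ± 2.32 CPM against 17.2 ± 1.95 CPM in shControl (log2 fold change 0.72 ± 0.096, edgeR adjusted p = 3.31e-06).

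CHST4, another enzyme of selectin ligands, was higher at 0.776 ± 0.329 CPM against 0.218 ± 0.162 CPM in shControl (log2 fold change 1.81 ± 0.57, edgeR adjusted p = 0.0103), and its call was lost without shTRIP6 replicate 2 (adjusted p = 0.0919) or shControl replicate 2 (0.0578). The p-values of its alternatives spanned 0.00449 to 0.0919, and its log2 fold change was 2.52 without shControl replicate 3. CHST10, which makes the HNK-1 epitope, was lower at 19 ± 0.971 CPM against 22.4 ± 1.83 CPM in shControl (log2 fold change -0.24 ± 0.09, edgeR adjusted p = 0.0293), and its call depended on 3 libraries. Its adjusted p was 0.151 with shControl replicate 2 left out, 0.144 with shTRIP6 replicate 1 left out and 0.0606 with shTRIP6 replicate 3 left out. It was 0.075 with upper-quartile scaling and 0.0501 in DESeq2. The p-values of its alternatives spanned 0.00943 to 0.151. CHST12 stood at 22.5 against 24 CPM (adjusted p = 0.369).

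Of the 32 genes that could not be tested, 13 had no count, which allows up to 0.0941 to 0.101 CPM in a library (3 counts). These were CHST8, CHST9, FUT3, FUT5, FUT7, FUT9, GALNT5, GALNT8, GALNT17, MGAT4D, ST6GALNAC1, ST8SIA2 and ST8SIA3. The other 19 held at most 48 counts over the 6 libraries. Among them B3GNT6, the core 3 synthase of normal colon, had 0, 0 and 1 counts in shTRIP6 and 0, 0 and 1 in shControl. CHST5, a GlcNAc sulfotransferase of intestine, had 0, 1 and 0 counts in shTRIP6 and 0, 6 and 4 in shControl, and CHST6, its keratan sulfate counterpart, had 2, 1 and 0 counts in shTRIP6 and 0, 0 and 1 in shControl.

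Genes of the same pathways outside these families were taken from 9 fixed lists. Of 118 tested, 40 were higher and 42 lower (69.5% against 60.1% of all tested genes), with a median log2 fold change of 0.040. The balance depended on scaling, with 49 higher and 39 lower under upper-quartile scaling and 35 higher and 42 lower with no scaling. In the list of core 1 and other transferases, 6 of 8 tested rose and 1 fell (87.5% called against 60.1% of all tested genes). B4GALNT4, a GalNAc transferase of lactosamine type ends, stood at 5.62 ± 0.6 CPM against 0.306 ± 0.153 CPM in shControl (log2 fold change 4.19 ± 0.31, edgeR adjusted p = 1.05e-09), and B3GALNT1 and B4GALNT1 are given above. C1GALT1, the core 1 synthase that acts after the GALNT enzymes, stood at 50.2 against 53.4 CPM (edgeR adjusted p = 0.313). B3GALNT2 fell by a small amount (log2 fold change -0.18 ± 0.056, edgeR adjusted p = 0.00857), a call lost without shTRIP6 replicate 1 (adjusted p = 0.0884, alternatives 0.00227 to 0.0884).

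The glycosaminoglycan genes upstream of the chondroitin sulfotransferases included larger falls than those of CHST3 and CHST15. Of 17 backbone genes tested, 5 rose and 6 fell (64.7% called against 60.1% of all tested genes). CSGALNACT1, which starts the chondroitin chain, fell to 1.11 ± 0.128 CPM against 30.7 ± 1.07 CPM in shControl (log2 fold change -4.78 ± 0.13, edgeR adjusted p = 2.51e-16). Its paralog CSGALNACT2 was more abundant in both groups, at 38.7 against 42.3 CPM, and did not pass the test (edgeR adjusted p = 0.181). DSEL, an epimerase that turns chondroitin into dermatan, fell to 18.4 ± 0.531 CPM against 109 ± 7.29 CPM in shControl (log2 fold change -2.56 ± 0.067, edgeR adjusted p = 1.52e-16). Its paralog DSE, at 26.7 against 29.6 CPM, did not pass the test (edgeR adjusted p = 0.117). CHPF2, a chondroitin polymerising factor, fell by less (log2 fold change -0.77 ± 0.062, edgeR adjusted p = 3.90e-09), while CHSY3 (0.78), the linker enzyme gene B3GAT3 (0.63) and the heparan sulfate polymerase gene EXT1 (0.29) rose on the log2 scale. Of the 19 tested genes for sulfation outside the CHST family, 5 rose and 8 fell (68.4% called against 60.1% of all tested genes). HS6ST2, a heparan sulfate 6-sulfotransferase, stood at 0.0735 ± 0.101 CPM against 11.9 ± 0.468 CPM in shControl (log2 fold change -7.25 ± 0.34, edgeR adjusted p = 1.21e-12). Its log2 fold change was -9.20 without shTRIP6 replicate 1, which held 6 of its 7 shTRIP6 counts. HS6ST1, also a heparan sulfate 6-sulfotransferase gene, stood at 37.9 against 41.6 CPM and did not pass the test (edgeR adjusted p = 0.144). SULF2, which removes such sulfates, stood at 0.404 ± 0.116 CPM against 31.9 ± 2.59 CPM in shControl (log2 fold change -6.29 ± 0.17, edgeR adjusted p = 1.57e-16). HS3ST3B1, a heparan sulfate 3-sulfotransferase gene with 0, 0 and 9 counts in shTRIP6 and 52, 41 and 61 in shControl, fell too (log2 fold change -4.08 ± 0.68, edgeR adjusted p = 4.04e-05). It was -5.30 in limma-voom and -8.70 without shTRIP6 replicate 3, where shTRIP6 has no count left and the fitted value is no bound. NDST1 (0.32), NDST2 (0.29) and SLC35B3 (0.33) rose slightly, the last not without shTRIP6 replicate 2 (adjusted p = 0.0601, alternatives 0.00256 to 0.0601).

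Of 29 tested genes that supply the sugar donors, 11 rose and 9 fell (69% called against 60.1% of all tested genes). UAP1, which makes UDP-GlcNAc, the donor of the MGAT, GCNT and B3GNT enzymes, rose to 767 ± 14.2 CPM against 388 ± 18.2 CPM in shControl (log2 fold change 0.98 ± 0.044, edgeR adjusted p = 5.32e-13), and GFPT2, an enzyme at the head of that pathway, fell to 2.86 ± 0.771 CPM against 15.5 ± 0.796 CPM in shControl (log2 fold change -2.44 ± 0.16, edgeR adjusted p = 2.56e-10). GFPT1, whose product catalyses the same step, was higher at 104 ± 2.09 CPM against 94.8 ± 3.21 CPM in shControl (log2 fold change 0.14 ± 0.051, edgeR adjusted p = 0.0258). Its call was lost without shTRIP6 replicate 1 (adjusted p = 0.089), and for shControl with replicate 2 (0.0533) or 3 (0.0947) left out, over alternatives from 0.0043 to 0.0947. UGDH, which makes the UDP-glucuronate of glycosaminoglycan chains, fell to 32.7 ± 0.906 CPM against 67.1 ± 3.26 CPM in shControl (log2 fold change -1.04 ± 0.064, edgeR adjusted p = 7.30e-11). GALT (0.96) of galactose use and GMPPB (0.83) of GDP-mannose supply rose and GNE (-0.44) of sialic acid supply fell on the log2 scale. Of the N-glycan trimming genes, 3 of 8 rose and 3 fell (75% called against 60.1% of all tested genes). On the log2 scale the mannosidase genes MAN1B1, MAN2A2, MAN2A1 and MAN1A1 stood at -1.31, -0.63, 0.17 and 0.40 and the glucosidase gene GANAB at 0.19.

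Of 17 genes for Golgi scaffold and ion supply, 5 rose and 7 fell (70.6% called against 60.1% of all tested genes). The matrix genes GOLGA2, GOLGB1 and GORASP1 stood at -0.92, -0.60 and 0.38 on the log2 scale. GOLPH3, whose product retains glycosyltransferases in the Golgi, stood at 84.5 against 125 CPM (log2 fold change -0.57 ± 0.052, edgeR adjusted p = 2.13e-08). COG3 and COG6 were higher by 0.27 and 0.21 on the log2 scale. COG3 no longer passed with shControl replicate 2 left out (adjusted p = 0.0806), nor with shTRIP6 replicate 1 (0.0568) or 2 (0.0547) left out, and its alternatives spanned 0.00225 to 0.0806. The call of COG6 was lost under 9 of 14 alternatives, which spanned 0.0177 to 0.155, with 0.085 and 0.155 when shTRIP6 replicates 2 and 3 were left out in turn and 0.0755 and 0.13 for shControl replicates 2 and 3. Among mucin-type carriers 1 of 8 tested rose and 4 fell, or 62.5% called against 60.1% of all tested genes. CD24, a small heavily glycosylated selectin ligand, fell to 4.13 ± 0.318 CPM against 237 ± 2.14 CPM in shControl (log2 fold change -5.84 ± 0.069, edgeR adjusted p = 2.35e-21). MUC1 fell to 2.34 ± 0.442 CPM against 18.1 ± 1.85 CPM in shControl and MUC16 to 0.858 ± 0.299 CPM against 42.6 ± 5.41 CPM in shControl (log2 fold changes -2.95 and -5.63), while CD44, the hyaluronan receptor, rose (0.37).

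Of 6 tested sialidase and fucosidase genes 3 rose and 1 fell (66.7% called against 60.1% of all tested genes). NEU3, the ganglioside sialidase, stood at 24.7 against 17.2 CPM (log2 fold change 0.52 ± 0.12, edgeR adjusted p = 0.00112). On the log2 scale FUCA2 stood at 0.26, FUCA1 at 0.35 and the sialic acid esterase gene SIAE at -0.23. The call of FUCA1 was lost without shTRIP6 replicate 1 (adjusted p = 0.0675, alternatives 0.00345 to 0.0675) and that of SIAE under 6 of 14 (from 0.0298 to 0.258). For SIAE these were 0.258 and 0.0646 with shTRIP6 replicates 1 and 2 left out in turn, and 0.084 and 0.0772 for shControl replicates 1 and 3, besides DESeq2 and upper-quartile scaling. Of 6 tested lectin genes 1 rose and 3 fell (66.7% called against 60.1% of all tested genes). The galectin gene LGALS1 stood at 355 ± 14.5 CPM against 269 ± 39.1 CPM in shControl and LGALS3 at 34.7 ± 0.693 CPM against 51.2 ± 1.32 CPM in shControl (log2 fold changes 0.40 and -0.56), with LGALS3BP at -0.21 and SIGLEC15 at -2.07.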

How the data were processed

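RNA of 6 libraries was analysed, 3 shTRIP6 and 3 shControl, grouped and numbered from the labels. The authors deposited raw counts per gene symbol. Per the submitters' processing notes, TopHat2, limma, edgeR and the hg38 build were used, with no versions or roles. The counter, annotation and strandedness stay unstated: not given in the sources used here. Library totals were 29605764 to 32089298, and 3 counts, taken as the limit of a 0, were 0.0941 to 0.101 CPM. Such limits and intervals cover counting error only.

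The whole table was fitted with edgeR's quasi-likelihood test (version 4.0.16, R 4.3.3) after TMM scaling and filterByExpr, with group as the only term and Benjamini-Hochberg adjustment over 15473 genes. SE values are |log2 fold change|/√F. The fit was tested on simulated data for this comparison, with 15454 genes tested. It recovered 28 of 50 genes raised 1.5-fold, 50 of 50 raised 2-fold, 50 of 50 raised 4-fold and 48 of 50 lowered to 0.5, with 8 unchanged genes called. The simulation gave every gene the same fixed dispersion, not estimated from these data. It changed only these genes, whereas 60.1% of tested genes were called in the real fit. Its recovery and false calls therefore do not carry over to the real libraries. Alternatives used RLE, upper-quartile or no scaling, other filters, DESeq2 1.42.0, voom in limma 3.58.1, the replicate number as a block, a test against a 1.2-fold change and leaving out each library. Replicates of a group differed by more than sampling noise (chi-square per degree of freedom 3.05 to 11.7).

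Exon lengths, positions and overlaps came from GENCODE 29 (GRCh38), which held all 100 members. Of the 68 tested members 17 have exons overlapping another gene of the table. Genes given with values in every library were those called at least 2-fold without overlap at 1 CPM or more, and the leading member of each family per kilobase. Other called members have means and log2 fold changes, and uncalled ones means and p. Of each related list up to 3 rises and 3 falls at 1 CPM or more were named. UGCG, C1GALT1, GFPT1, CSGALNACT2, DSE and HS6ST1 were added after their values were seen, as was naming of low genes outside the rule. The members and lists were chosen with earlier results of these data known.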

Additional observations from a re-analysis of the deposited data

How the results depend on the processing

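The 45 calls among the 68 tested members were stable in number: 45 with RLE, upper-quartile or no scaling and with no low-count filter, 43 with a filter of 1 CPM in 3 libraries, 43 in DESeq2, 44 in limma-voom and 43 to 47 when each library was left out. The numbers pair no libraries by the labels, and same-numbered deviations correlated at -0.045 to -0.023. With the replicate number as a block 45 members were called, the same 45, with 77 of the related genes, and TRIP6 stood at -2.04. Of the 45, 42 kept their call in every one of these alternatives that tested them, none changed sign, and CHST10, FUT10 and CHST4 lost theirs in some. At least 2-fold, 16 were called. A test against a 1.2-fold change called 35. Members with no exon overlap gave 35 calls of 51 tested, 17 higher and 18 lower. The share of all tested genes without an overlap is not given here, so that split is read no further. Related genes called numbered 74 to 88 over the scalings, filters and tools, and 69 to 82 without a library, and TRIP6 kept its fall in each alternative. Among tested members GCNT4, B3GALT4, FUT2, FUT1 and CHST4 had the fewest counts, at 55 to 93 over the 6 libraries.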
